A study of Mus musculus with 4 samples.

Results

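The endocannabinoid receptor and enzymes are 6 genes, taken by symbol out of the 32285 genes counted, and their RNA was measured in nuclei of the mouse lateral septum (LS). Cnr1 encodes the CB1 receptor. Dagla and Daglb encode the diacylglycerol lipases that make 2-arachidonoylglycerol (2-AG), and Mgll encodes monoacylglycerol lipase, the main enzyme that breaks it down. Napepld encodes a phospholipase D that makes anandamide from its lipid precursor, and Faah encodes the hydrolase that degrades anandamide. All 6 were detected in every library.

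Single-nucleus RNA sequencing counts the RNA molecules of a nucleus by their unique molecular identifiers (UMIs). The LS was microdissected from male mice aged 6 to 8 weeks and frozen, and the tissues of 3 mice were pooled in each of 4 libraries. C57J 1 and C57J 2 are 2 libraries of C57BL/6JNifdc mice, a further library is from BALB/c mice, and the last is from nude mice, which carry a Foxn1 knockout and descend from BALB/c. C57J 1 belonged to batch 1 and the other libraries to batch 2, and the labels name no treatment. Values over libraries are listed below as C57J 1, then C57J 2, nude and BALB/c. With a single library of nude and of BALB/c mice, only both together, as mice of BALB/c background, could be tested against C57J, and the p-values measure the spread between these 4 libraries of pooled mice.

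The libraries held 72912922 to 125998527 UMIs in 12558 to 17025 barcodes, of which 10913 to 13075 nuclei were kept, with a median of 4074 to 8384 UMIs. BALB/c was the deepest library. Pairs of libraries shared 29 to 63 barcodes. Foxn1 had 6, 2, 5 and 5 UMIs in whole libraries, too few for a check of the nude label. Nuclei were clustered without the 6 genes, and clusters were named by marker genes, so that a class name such as astrocytes stands for astrocyte-like nuclei. The 11 classes used here are LS neurons (20904 nuclei in 12 clusters), striatal projection neurons (1685 nuclei, 762 of them from C57J 1), Lhx6 GABAergic neurons (1296), cholinergic neurons (161), glutamatergic neurons (1032), astrocytes (6696), oligodendrocytes (OLs, 5318), newly forming OLs (190), oligodendrocyte precursor cells (OPCs, 1915), microglia (1358) and a vascular cluster (136). Another 8734 nuclei lay in 11 clusters that kept no name. Trpc4 and Dgkg, markers of LS neurons, were at 816 to 861 and 929 to 1000 CPM in the LS neurons and at 60.7 to 199 and 67.7 to 147 CPM in astrocytes, whereas Zic1 and Zic4 of the same marker list did not set LS neurons apart from astrocytes, Zic4 being higher in astrocytes in all 4 libraries. The vascular cluster went against its name in BALB/c, where its 4 endothelial markers summed to 61.5 CPM against 438 to 2411 CPM in the other libraries and its astrocyte markers to 2597 CPM, so its values are given as ranges only. CPM are the UMIs of a gene per 1000000 UMIs of the class in the library, and levels are compared here between classes within a gene and not between genes.

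Endocannabinoids are lipids that neurons make on demand, mostly at the postsynaptic side, and release toward the presynaptic terminal. There they bind CB1, which couples to inhibitory G proteins and lowers transmitter release. Receptors that couple to Gq, such as some metabotropic glutamate receptors, drive 2-AG synthesis through phospholipase C and diacylglycerol lipase. Astrocytes and microglia also take part in making and clearing 2-AG. The LS is a mostly GABAergic nucleus in which CB1 is known to modulate synaptic input.

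Cnr1 (ENSMUSG00000044288, chromosome 4, 33924593 to 33948831 of mm10, plus strand) showed the widest range of the 6 genes among the 11 clusters of LS neurons with more than 1000 nuclei, and Daglb (ENSMUSG00000039206, chromosome 5, 143464584 to 143505942, plus strand) the narrowest. The 250 bases upstream of the RefSeq start of each are printed for this contrast, with the GC box (GGGCGG or its reverse complement CCGCCC) in capitals. The first is the most upstream of 3 RefSeq starts of Cnr1, at chr4:33924014-33924263 of GRCm38.p6 on the plus strand, and the second is at chr5:143464243-143464492 on the plus strand.
Cnr1: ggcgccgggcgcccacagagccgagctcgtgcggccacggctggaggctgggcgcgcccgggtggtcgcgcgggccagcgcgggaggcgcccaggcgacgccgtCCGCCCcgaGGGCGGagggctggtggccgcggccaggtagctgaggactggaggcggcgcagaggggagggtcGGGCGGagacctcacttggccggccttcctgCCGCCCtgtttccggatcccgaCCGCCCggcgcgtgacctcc
Daglb: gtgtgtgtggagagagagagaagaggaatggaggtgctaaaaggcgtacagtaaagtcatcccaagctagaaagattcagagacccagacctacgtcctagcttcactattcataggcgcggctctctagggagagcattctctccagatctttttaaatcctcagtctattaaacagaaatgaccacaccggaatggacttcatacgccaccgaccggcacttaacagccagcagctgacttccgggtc
The Cnr1 window held 5 GC boxes and was 79.2% G and C, whereas the Daglb window held none and was 49.2% G and C. This contrast depends on the start chosen, since the windows of the other 2 Cnr1 starts held 0 GC boxes each and were 68.8% and 49.2% G and C. Of 32851 RefSeq windows of the same length, 32.7% held a GC box on either strand. The window of Faah held 2, the second of the 2 windows of Mgll held 1, and the windows of Napepld held none. The CCAAT box (CCAAT), the TATA box (TATAAA) and the cyclic AMP response element (TGACGTCA), each searched on both strands and present in 33.8%, 12.4% and 1.55% of all windows, were found in none of the windows of the members with an entry. Dagla had no entry. These matches describe the letters of the windows and not sites of binding.

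Cnr1 was highest in cholinergic neurons, at 188, 134, 275 and 288 CPM (221 ± 73.2, SD, n = 4). Each of these 161 nuclei carried many UMIs (median 11943), but the C57J 2 value rests on 26 Cnr1 UMIs in 21 nuclei (exact Poisson 95% interval 87.6 to 196 CPM, covering counting error only). Cholinergic neurons stood above every other class in each library. Lhx6 GABAergic neurons followed at 115, 77.1, 93.1 and 136 CPM and LS neurons at 82.4, 74.5, 72.6 and 66.3 CPM (73.9 ± 6.63). In every library the cholinergic class exceeded the Lhx6 GABAergic class and this the LS neurons, although the ranges over libraries of neighbours in that order overlapped. Striatal projection neurons had the lowest mean, at 34.3, 33.4, 45.8 and 21.03 CPM, although another class was lower in each library. Between these ends lay microglia (70.4 CPM on average), the vascular cluster, astrocytes (53.9), OLs (48.9), OPCs (47.1), glutamatergic neurons (46.3) and newly forming OLs (38.1), and each of these neighbours overlapped with the next.

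The Cnr1 level in glial nuclei was set beside that of neuronal RNA. Snap25, a synaptic protein gene of neurons, was at 479, 397, 542 and 251 CPM in OLs, against 935, 876, 922 and 1019 CPM in all named neurons together. Cnr1 in OLs was at 52.4, 48.7, 72.6 and 22.0 CPM, so that the order of the 4 libraries was the same for Cnr1 and for the sum of 4 neuron markers except between the C57J libraries (2965, 3313, 4571 and 1756 CPM). In microglia Snap25 was at 643, 573, 665 and 360 CPM and Cnr1 at 80.8, 87.3, 80.8 and 32.7 CPM. Both were lowest in BALB/c, but their order differed among the other libraries. Per 100 UMIs of Snap25, the astrocytes, OLs, OPCs and microglia held 8.65 to 19.0 UMIs of Cnr1 and the neurons 7.09 to 8.54. This ratio depends on the marker chosen. In OLs Cnr1 was at 65.6%, 67.4%, 97.4% and 30.5% of the neuron level and Snap25 at 51.2%, 45.3%, 58.8% and 24.7%. The 4 summed markers were at only 18.5%, 22.0%, 28.5% and 10.8%. In all 4 glial classes both Cnr1 and the summed neuron markers were lowest in BALB/c, and the part of neuronal RNA in glial Cnr1 was not tested. With every nucleus thinned to 1000 UMIs, a Cnr1 UMI was found in 18.01% of cholinergic, 9.51% of Lhx6 GABAergic, 6.47% of LS and 2.79% of striatal neurons, against 4.43% of OLs and 6.91% of microglia. Without thinning these shares were 81.4%, 57.2%, 34.2%, 17.6%, 10.1% and 11.3%, at median depths of 11943, 9241, 7886, 5860, 2337 and 1628.5 UMIs, and thinning left out 80 OLs, 99 microglia and 2 Lhx6 GABAergic neurons. At equal depth and pooled over libraries, the share of LS neurons was above that of OLs and below that of microglia. The share of striatal neurons lay below those of OLs and microglia, so no Cnr1 level above that of glial nuclei is read from it. This order did not hold in every library. In nude, LS neurons (6.39%) lay below OLs (6.50%). In BALB/c, LS (6.02%) and striatal neurons (3.89%) lay above OLs (2.34%) and microglia (3.74%).

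**Figure D1:**
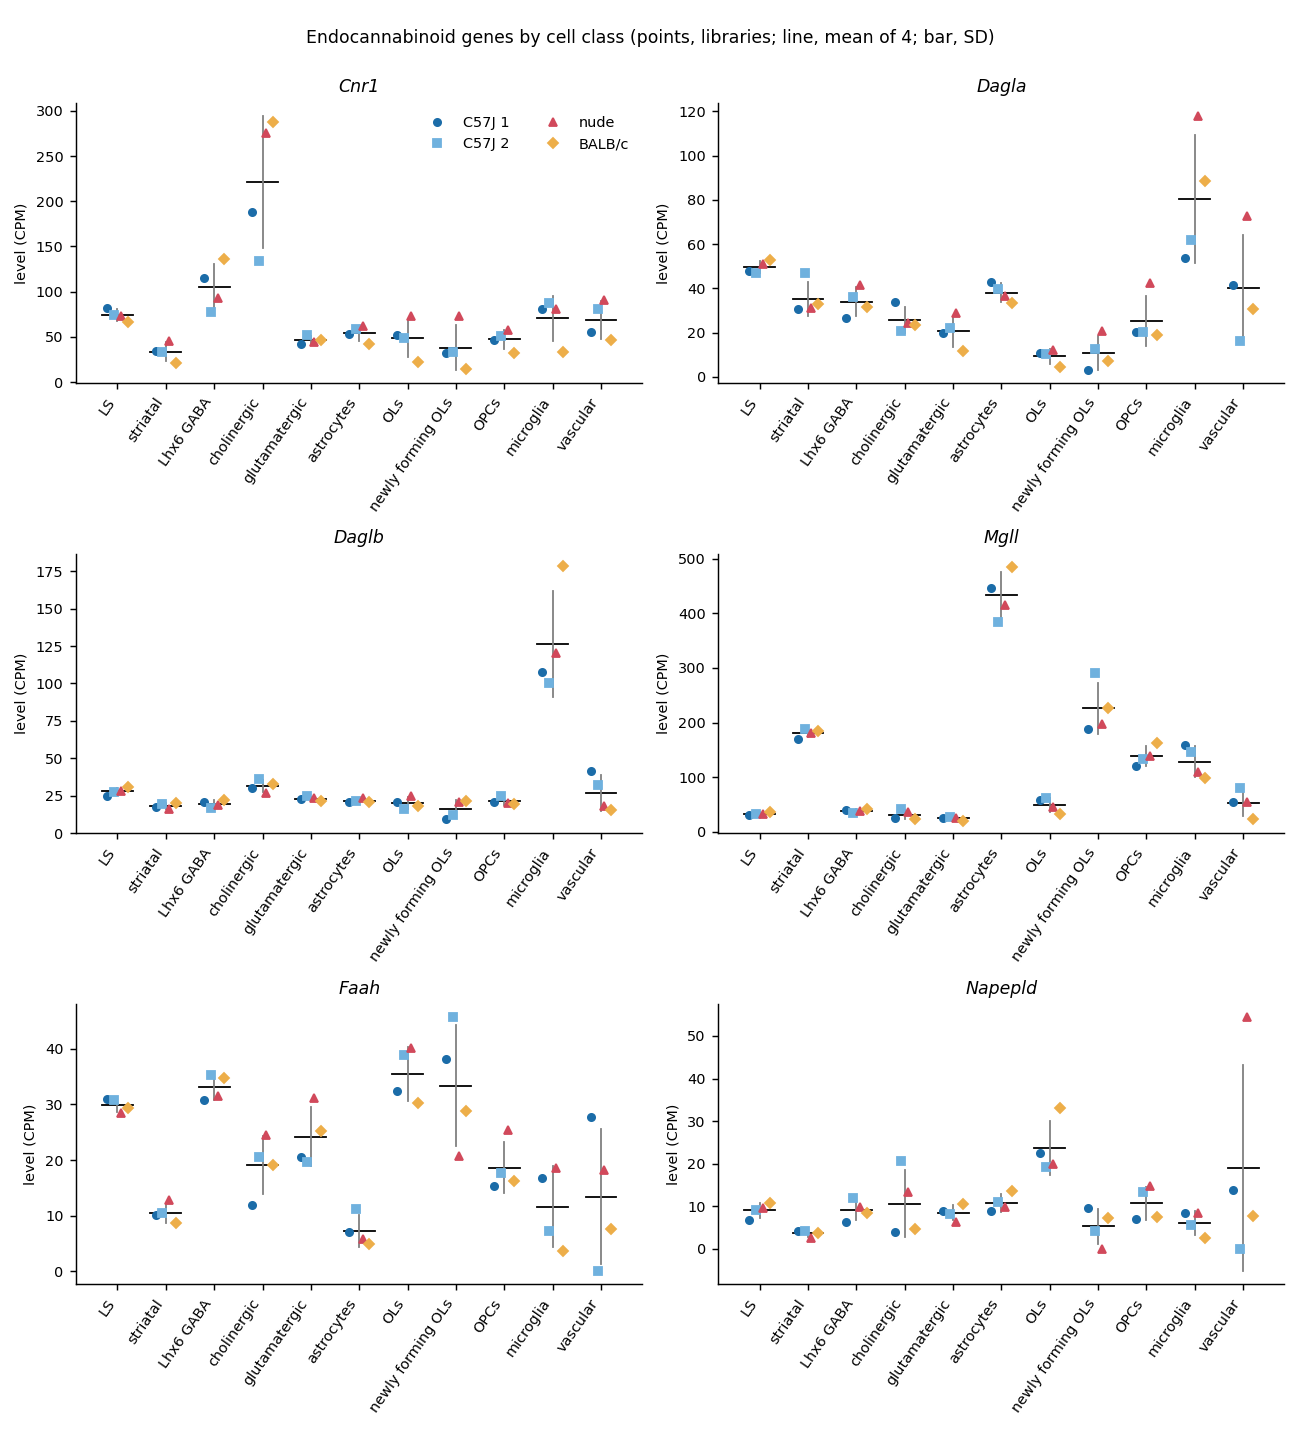
Level of each of the 6 genes (CPM, vertical axis, different for each gene) in the 11 cell classes. Points are the 4 libraries, horizontal lines their mean and vertical bars 1 SD on either side; cholinergic neurons stand highest for Cnr1, microglia for Daglb and astrocytes for Mgll in each of the 4 libraries.

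Dagla (ENSMUSG00000035735, chromosome 19, 10245265 to 10304877, minus strand) is the lipase held mainly responsible for 2-AG at synapses. Its highest level was in microglia, at 53.9, 61.9, 118 and 88.5 CPM (80.6 ± 29.0), above the LS neurons in every library. LS neurons had the next level, 48.0, 47.0, 51.0 and 52.7 CPM (49.7 ± 2.61), and varied least between libraries. The lowest mean was that of OLs, at 10.7, 10.5, 12.1 and 4.44 CPM. Microglial Dagla was 120%, 136%, 239% and 182% of the level in all named neurons, while their Snap25 was 68.8%, 65.4%, 72.1% and 35.3% of it. The remaining classes lay between 10.9 and 40.3 CPM on average with overlapping ranges. Myrf, the myelin regulatory factor gene, starts 4517 bases downstream of the end of Dagla on the same strand and had its highest level, 154 CPM, in the OLs, the class with the lowest mean of Dagla. An antisense gene inside Dagla, AC132148.1, had 9 UMIs in all named classes.

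Daglb, the second 2-AG lipase, was set apart by microglia, at 108, 100, 120 and 178 CPM (127 ± 35.4). This was 4.03-fold the mean of the next class, cholinergic neurons (31.4 CPM), and the libraries of microglia did not overlap with those of any other class. LS neurons were at 25.2, 27.5, 28.3 and 31.1 CPM (28.0 ± 2.45). All other classes except the vascular cluster averaged 16.1 to 23.1 CPM, each overlapping with the next. Daglb overlaps the 3′ part of Rac1, a gene on the opposite strand (143503634 to 143528036), and Rac1 was also highest in microglia, at 138 CPM. Whether the authors' counting used strand is not given in the sources used here, so reads in the shared segment cannot be told apart. With predicted doublets kept, the microglial mean was 89.6 CPM.

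Mgll (ENSMUSG00000033174, chromosome 6, 88724412 to 88828360, plus strand) was highest in astrocytes, at 447, 385, 415 and 485 CPM (433 ± 43.2). Newly forming OLs followed at 188, 291, 198 and 227 CPM, and striatal projection neurons at 171, 188, 180 and 184 CPM. These 3 classes did not overlap with each other, although the gap between the last pair was under 1 CPM and newly forming OLs rest on 190 nuclei. OPCs (120, 134, 139 and 163 CPM) and microglia (158, 146, 110 and 99.4 CPM) overlapped, and both lay above the 4 remaining neuron classes in every library. LS neurons were at 30.5, 33.2, 32.8 and 36.3 CPM (33.2 ± 2.41) and Lhx6 GABAergic, cholinergic and glutamatergic neurons averaged 38.6, 31.6 and 24.8 CPM. In OLs, whose lineage includes the OPCs and newly forming OLs, Mgll was at 57.4, 61.6, 46.4 and 32.9 CPM. At 1000 UMIs per nucleus a Mgll UMI was found in 30.96% of astrocytes, 15.1% of striatal and 3.32% of LS neurons, and 2.72% of glutamatergic neurons, where the level was lowest (57.2%, 58.0%, 21.8% and 10.4% without thinning, and 45 astrocytes and 1 glutamatergic neuron left out). The antisense gene Gm26588 overlaps the start of Mgll with 228 UMIs in all named classes.

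The 2 astrocyte clusters differed in Mgll. The cluster led by Emx2os and Grin2c (5152 nuclei) held 526, 461, 516 and 584 CPM, and the cluster led by B230323A14Rik and Atp13a4 (1544 nuclei) held 126, 124, 132 and 154 CPM. All libraries of the first lay above all of the second. Cnr1 overlapped between them, at 53.5 ± 7.33 and 54.7 ± 13.2 CPM. Dagla was at 36.4 ± 4.39 and 44.0 ± 4.66 CPM (SD, n = 4), lower in the first cluster in 4 of 4 libraries although the ranges overlapped. In an unnamed cluster of 848 nuclei led by C230072F16Rik and Veph1, ependymal markers scored highest (1) and astrocyte markers second (0.45). It had Mgll at 532, 444, 306 and 395 CPM, above the second cluster in every library and below the first in 3 of 4. These are levels of clusters made from other genes of the same nuclei, and they were not tested.

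Faah (ENSMUSG00000034171, chromosome 4, 115967145 to 116017926, minus strand) had similar levels in OLs and in several neuron classes. OLs were at 32.3, 38.9, 40.1 and 30.2 CPM (35.4 ± 4.87), Lhx6 GABAergic neurons at 30.8, 35.4, 31.5 and 34.8 CPM and LS neurons at 30.9, 30.8, 28.4 and 29.3 CPM (29.8 ± 1.19). The class with the highest Faah level was not settled, since in 10 settings and single libraries it was OLs in 6, newly forming OLs in 2 and Lhx6 GABAergic neurons in 2. Astrocytes had the lowest mean of Faah, at 7.07, 11.2, 5.85 and 4.86 CPM, or 24.6%, 37.8%, 20.7% and 17.0% of the level in neurons, beside 45.8%, 42.9%, 45.9% and 21.8% for Snap25. The 4 summed neuron markers were at 16.9%, 21.9%, 24.1% and 10.6% there. Faah in astrocytes thus lay below the share of Snap25 but, except in nude, above that of the sum. Microglia were lower than astrocytes in C57J 2 and BALB/c. Striatal projection neurons were nearly as low, at 10.1, 10.4, 12.9 and 8.62 CPM. In OLs the level was 106% to 142% of that in neurons, above what Snap25 showed there (24.7% to 58.8%).

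Napepld (ENSMUSG00000044968, chromosome 5, 21662901 to 21701396, minus strand) had the fewest UMIs of the 6 genes, 708 to 1494 per library. Apart from the vascular cluster, which held 0 to 3 Napepld UMIs per library, OLs were highest, at 22.6, 19.3, 19.8 and 33.0 CPM (23.7 ± 6.40). The classes in the middle could not be ordered, with LS neurons at 6.69, 9.04, 9.56 and 10.6 CPM, astrocytes at 8.79, 10.9, 9.74 and 13.6 CPM and OPCs at 6.98, 13.4, 14.6 and 7.57 CPM. Striatal projection neurons had the lowest mean, at 4.21, 4.17, 2.41 and 3.79 CPM, although another class was lower in each library. OLs had the most in 7 of 10 settings and single libraries, the vascular cluster in 2 and cholinergic neurons in 1.

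Over all barcodes of a library and in proportion to its level, Napepld varied most and Faah least, whereas in CPM Mgll had the widest range. Cnr1 was at 71.4, 67.0, 69.2 and 64.3 CPM of the whole library, Mgll at 78.6, 70.5, 62.7 and 80.7 CPM and Dagla at 40.9, 42.4, 46.7 and 42.5 CPM. Faah ranged from 26.8 to 28.2 CPM, Daglb from 24.1 to 28.6 CPM and Napepld from 7.56 to 11.9 CPM. Fewer nuclei of a class and less RNA per nucleus cannot be told apart in these whole-library values.

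**Figure D2:**
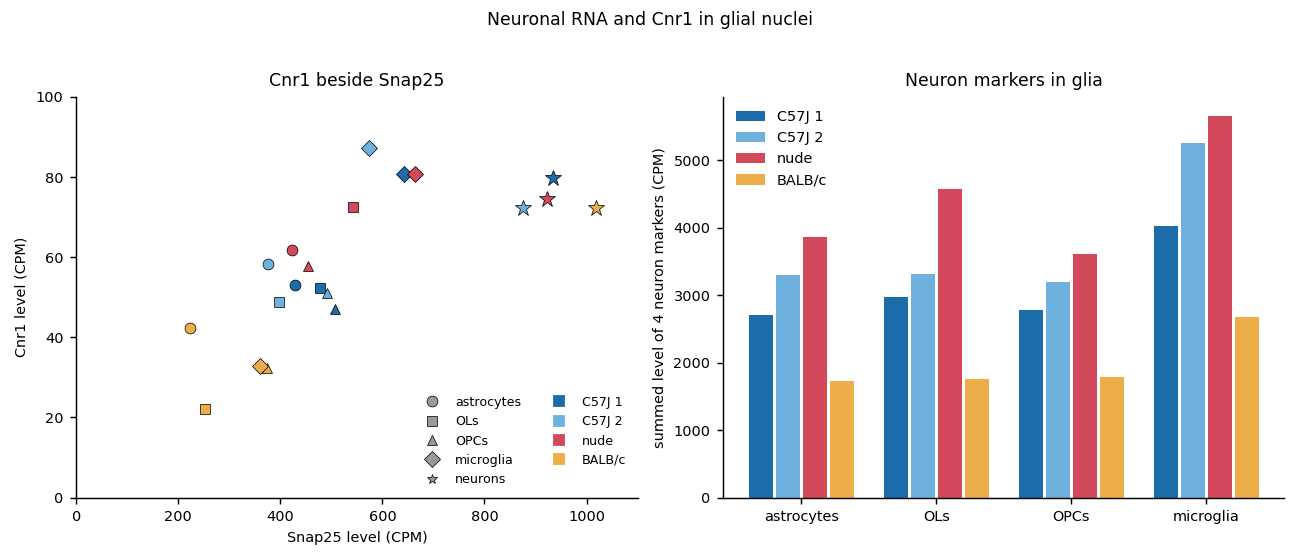
Left, the level of Cnr1 (CPM, vertical) against that of the neuron gene Snap25 (CPM, horizontal) in 4 glial classes and in all named neurons, with symbols for classes and colours for libraries. Right, the summed level of the neuron markers Snap25, Syt1, Rbfox3 and Meg3 (CPM) in each glial class and library; BALB/c is lowest in all 4 classes, from 1726 to 2669 CPM.

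The LS neurons formed 12 clusters, each called by its 2 leading genes. Among the 11 clusters of more than 1000 nuclei, Cnr1 differed more than any other member. Over all 12, the mean of Mgll ranged from 12.1 CPM in Col15a1/Col6a3 to 165 CPM in Foxp2/Crhr2, a cluster of 77 nuclei. Cnr1 was highest in the Col15a1/Col6a3 cluster, at 184, 164, 165 and 185 CPM. The Ddr2/Met cluster followed at 181, 143, 116 and 175 CPM and the Cpa6/Col6a3 cluster at 133, 108, 135 and 141 CPM. These 3 clusters overlapped in turn, and the libraries of the third did not overlap with those of the Dach2/Crhr2 cluster after it, at 94.5, 76.6, 80.8 and 98.3 CPM. Pth2r/Sall3, Nts/Sst and Sema3a/Otx2os1 averaged 72.0, 68.0 and 56.2 CPM. Col6a3/Met (41.3 CPM) and Otx2os1/Esr1 (34.7 CPM), a cluster with the estrogen receptor gene Esr1, did not overlap with each other, and the first did not overlap with Sema3a/Otx2os1 before it. The lowest level was 15.4 CPM in Foxp2/Fgd5, where the libraries gave 16.5, 12.5, 21.5 and 11.1 CPM, below the level in the OLs of each library. Between the highest and lowest of the 11 clusters of more than 1000 nuclei the fold was 11.3.

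The other members varied less among these 11 clusters. Mgll ranged 4.64-fold, from 56.3 CPM in Pth2r/Sall3 (48.4, 54.6, 56.5 and 65.8 CPM) to 12.1 CPM in Col15a1/Col6a3 (12.1, 13.4, 10.9 and 12.04 CPM), the cluster with the most Cnr1. Dach2/Crhr2, with the fourth-highest Cnr1 level, was next lowest for Mgll at 15.4 CPM. Ddr2/Met, by contrast, combined a high Cnr1 level with 43.5 CPM of Mgll, and over the 11 clusters the Pearson correlation of log2 levels of Cnr1 and Mgll was -0.37 (Spearman -0.25), a description of 11 clusters from the same libraries. Napepld ranged 3.05-fold, Faah 1.74-fold, Dagla 1.504-fold and Daglb 1.35-fold. A cluster of 77 nuclei led by Foxp2 and Crhr2 had far more Mgll than the rest, at 151, 227, 96.6 and 185 CPM, from 7 to 67 UMIs per library. The exact Poisson 95% interval of its lowest library, nude with 10 nuclei, was 38.8 to 199 CPM, which overlaps that of the nude Pth2r/Sall3 cluster (47.8 to 66.4 CPM).

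**Figure D3:**
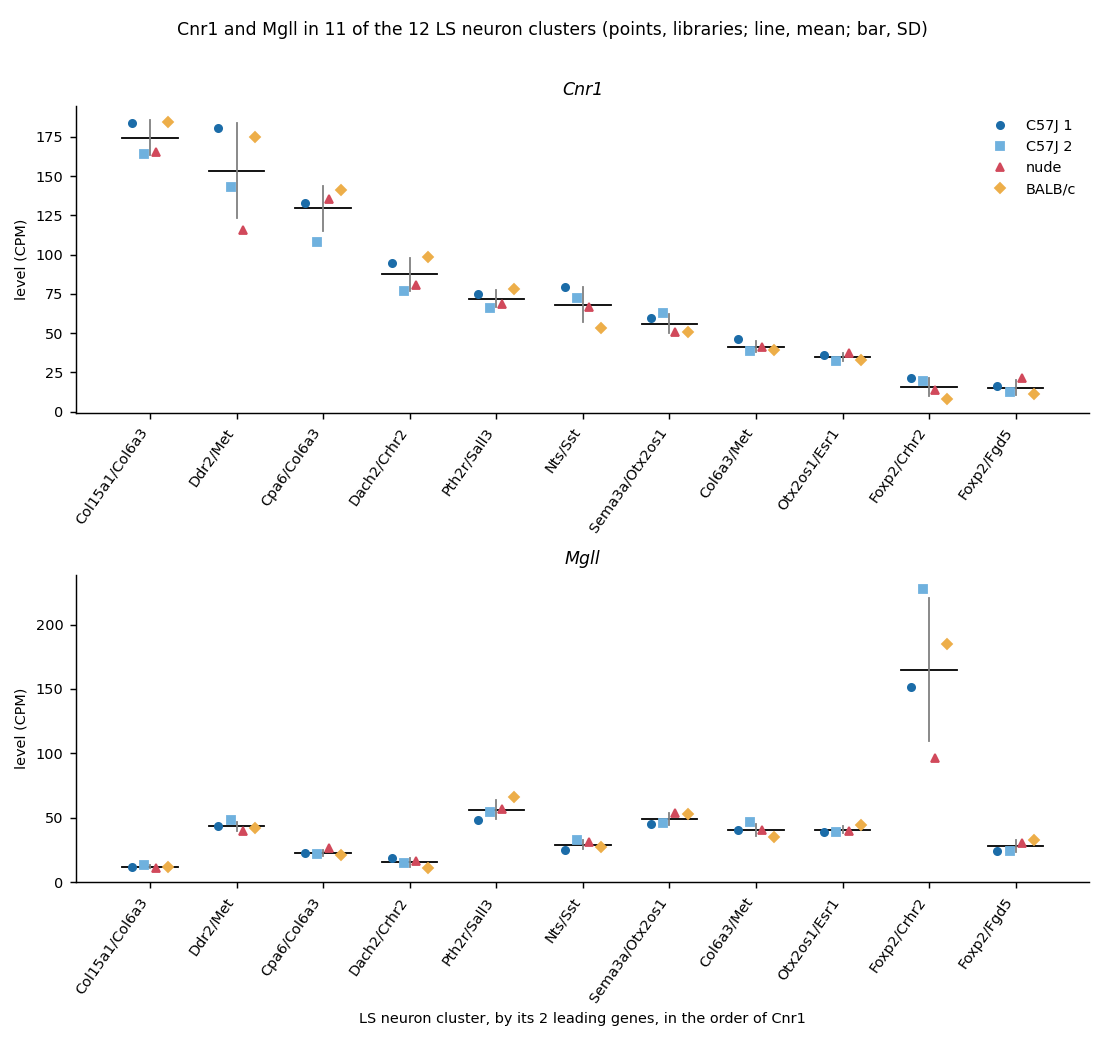
Levels (CPM, vertical axes) of Cnr1 and Mgll in 11 of the 12 clusters of LS neurons, ordered from the highest to the lowest mean of Cnr1. Points are the 4 libraries, horizontal lines the mean and bars 1 SD on either side; Cnr1 falls from 175 to 15.4 CPM, and Mgll is highest in the small Foxp2/Crhr2 cluster.

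The differences between classes were tested on UMIs summed per library and class, with the library as a block, by the quasi-likelihood test of edgeR, with p-values adjusted by the Benjamini-Hochberg method over all genes tested. Calls required an adjusted p under 0.05 together with a log2 fold change beyond 0.5 in either direction. The 6 genes were left out of the clustering, but the classes were built from other genes of the same nuclei, so these p-values say that the levels of the classes differ and not that the classes are independent groups. In LS neurons against astrocytes, 4 members were called higher (Cnr1, Dagla, Daglb and Faah) and 1 lower (Mgll), where 27.1% of all 18394 genes tested were called higher and 26.7% lower. Mgll was 11.4-fold lower in LS neurons (log2 fold change -3.51, SE 0.10, adjusted p = 6.73e-07 in edgeR's test). Faah was 4.94-fold higher (2.30, SE 0.17, edgeR's adjusted p = 1.45e-05). Cnr1 was 1.59-fold, Dagla 1.499-fold and Daglb 1.48-fold higher, each in 4 of 4 libraries, at adjusted p values of 0.000469, 0.000939 and 0.000694 in the same edgeR test. These folds are after edgeR's TMM scaling, and the unscaled means of these genes lay closer together, under the fold limit. The means were 73.9 against 53.9 CPM for Cnr1, 49.7 against 38.1 CPM for Dagla and 28.0 against 21.7 CPM for Daglb. Without BALB/c, the library with the least neuronal RNA in its astrocytes, the log2 fold changes of Dagla and Daglb were 0.47 and 0.48, under the limit, which left 3 members called. With nuclei thinned to 1000 UMIs, Daglb was at 0.47 and 4 members were called. Napepld was not called (-0.08, SE 0.12, edgeR's adjusted p = 0.575).

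LS neurons were also set against striatal projection neurons, the neighbouring GABAergic class. In this comparison 4 members were called higher in LS neurons (Cnr1, Daglb, Faah and Napepld) and 1 lower (Mgll), beside 14.8% of 17956 genes higher and 10.7% lower. Mgll was 5.48-fold lower in LS neurons (log2 fold change -2.45, SE 0.07, edgeR's adjusted p = 5.54e-15). Faah was 2.93-fold higher (1.55, SE 0.13, adjusted p = 1.29e-08) and Cnr1 2.30-fold higher (1.20, SE 0.11, adjusted p = 5.97e-08) by edgeR's test. Napepld (1.13, SE 0.22) and Daglb (0.57, SE 0.11) had adjusted p values of 0.000475 and 0.000322 in the same edgeR test, and both lost the call when nuclei were thinned to 1000 UMIs, Daglb also with doublets kept (0.46). Dagla missed the fold limit, at 0.497 (SE 0.11, edgeR's adjusted p = 0.00106), and passed it without C57J 2 (0.64).

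OLs against astrocytes separated the 2 hydrolases. Faah was 5.21-fold higher in OLs (log2 fold change 2.38, SE 0.17, edgeR's adjusted p = 3.34e-05), and Mgll was 8.61-fold lower (-3.11, SE 0.21, edgeR's adjusted p = 2.67e-05). Napepld was higher (1.21, SE 0.14, adjusted p = 0.000269) and Dagla lower in OLs (-2.08, SE 0.20, adjusted p = 0.000129) by the same edgeR test, so that 2 members were called higher and 2 lower, beside 15.3% and 21.2% of 14132 genes. Cnr1 (-0.19, SE 0.18, adjusted p = 0.421) and Daglb (-0.07, SE 0.12, adjusted p = 0.664) were not called by edgeR. Without BALB/c the Cnr1 value was 0.02. The 3 comparisons share the LS neurons or the astrocytes and are not independent of each other.

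**Figure D4:**
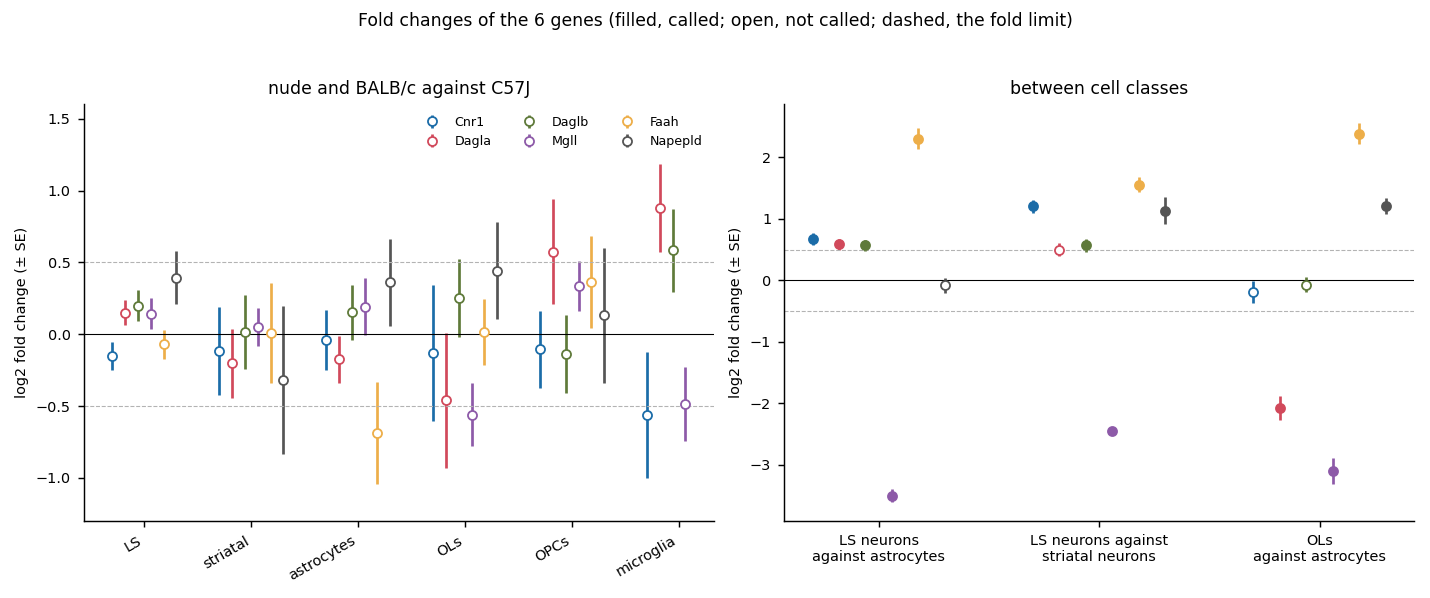
Log2 fold changes (points) with their standard errors (bars) from edgeR, for nude and BALB/c together against C57J in 6 cell classes (left) and between cell classes (right). Filled points were called, open points were not, and dashed lines mark the fold limit of 0.5 in either direction; all points on the left are open, and Mgll reaches -3.51 on the right.

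The study compared mice of different backgrounds, and here C57J 1 and C57J 2 were set against nude and BALB/c within each of 6 classes. In LS neurons, 0 of 6 members were called, where 2.2% of 18699 genes were called. Cnr1 was at 82.4 and 74.5 CPM in C57J and at 72.6 and 66.3 CPM in nude and BALB/c (log2 fold change -0.15, SE 0.10, edgeR's adjusted p = 0.561). The libraries of the 2 backgrounds did not overlap, which also held for Dagla, Daglb, Faah and Napepld but not for Mgll. The share of all genes that do so was not computed. Dagla (0.15, SE 0.09), Daglb (0.20, SE 0.11), Mgll (0.14, SE 0.11), Napepld (0.39, SE 0.19) and Faah (-0.07, SE 0.10) had adjusted p values of 0.406 to 0.819 by edgeR's test. The median over the 6 members was 0.15, beside -0.01 over all genes tested.

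No member was called in the other classes either. The members called were 0 of 6 in striatal projection neurons, astrocytes, OLs and OPCs and 0 of 4 in microglia, where Faah and Napepld had too few UMIs for the test, beside 0.739%, 0.0576%, 0.0714%, 0.211% and 0% of all genes. Over the 34 tests in the 6 classes, edgeR gave an unadjusted p below 0.05 for Mgll in OLs and Dagla in microglia. Of all genes tested by edgeR, 5.10% (microglia) to 14.5% (LS neurons) had such a p, with 5.29% in OLs. DESeq2 called 0 members in each class. Of all genes it called 651 in LS neurons, 58 in striatal neurons, 92 in astrocytes, 80 in OLs, 32 in OPCs and 17 in microglia. With so few genes called, the 0 is not read as a result about the members. In microglia 0 of 8868 genes were called by edgeR, with 452 at an unadjusted p below 0.05 and 17 called by DESeq2. Mgll in OLs fell from 57.4 and 61.6 CPM in C57J to 46.4 and 32.9 CPM, with a log2 fold change of -0.56 (SE 0.22, adjusted p = 0.889 by edgeR). Dagla in microglia was at 53.9 and 61.9 CPM in C57J and at 118 and 88.5 CPM in nude and BALB/c (0.88, SE 0.30, adjusted p = 0.901 by edgeR), from 32 to 73 UMIs per library. The C57J libraries of both did not overlap with the others, and neither passed the adjusted test. In microglia Cnr1, Daglb and Mgll did not overlap either, and the share of all genes without overlap was not computed.

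In glia, Cnr1 was lowest in BALB/c. In OLs it was 72.6 CPM in nude (exact Poisson 95% interval 61.4 to 85.1) and 22.0 CPM in BALB/c (18.5 to 26.1), on either side of the C57J libraries, but with 1 library each and intervals of counting error only, the difference between them was not tested. In microglia it was 80.8 CPM in nude, level with C57J 1, and 32.7 CPM in BALB/c. Leaving out nude put BALB/c alone against C57J, and many more genes passed the limits in OLs and microglia than in the reported test. The log2 fold change of Cnr1 was then -1.06 in OLs and -1.32 in microglia. This fit assumes that the lone library varies like the others, so no call of Cnr1 is read from it. The neuron markers of the glial nuclei were lower in BALB/c as well (1756 against 2965 and 3313 CPM in OLs and 2669 against 4031 and 5253 CPM in microglia), and their part in this was not tested. Within batch 2, without C57J 1, the log2 fold changes of the members tested ranged from -0.05 to 0.21 in LS neurons. Over the 6 classes they ranged from -0.995 (in astrocytes) to 0.78 (in microglia). C57J 2 is then a lone library of its background, so neither a call nor its absence is read from this fit. In cholinergic neurons, which were too few to be tested, Cnr1 was at 188 and 134 CPM in C57J and at 275 and 288 CPM in nude and BALB/c, and the exact Poisson 95% interval of C57J 1 (152 to 230) overlapped the lower bound of nude (229 to 328).

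Of 28 further genes of the pathway, 25 could be tested between backgrounds in LS neurons, and 2 were called. Plcb2, a phospholipase C that provides diacylglycerol, rose from 2.07 and 2.89 CPM in C57J to 8.41 and 7.85 CPM in nude and BALB/c (log2 fold change 1.75, SE 0.22, edgeR's adjusted p = 0.0119). Cnrip1, which encodes a protein that binds the tail of CB1, fell from 90.6 and 85.2 CPM to 53.8 and 55.8 CPM (-0.66, SE 0.09, edgeR's adjusted p = 0.0158). Both lost the call without nude or without BALB/c, with log2 fold changes of 1.71 and 1.79 for Plcb2 and -0.61 and -0.69 for Cnrip1, where the adjusted p values by edgeR were 0.0595 and 0.0791 for Plcb2 and 0.0697 and 0.0706 for Cnrip1. In LS neurons Plcb2 was 1 of 10 other synthetic enzymes and Cnrip1 1 of 5 carriers and receptor partners, and 0 of 3 other receptors, 0 of 3 other breakdown enzymes and 0 of 4 Gq-coupled receptors were called. The median over the list was -0.03. In the other classes 0 of 20 (striatal neurons), 22 (astrocytes), 20 (OLs), 19 (OPCs) and 17 (microglia) of these genes were called. Cnrip1 was lower in the mean of nude and BALB/c there too, with log2 fold changes of -0.63, -0.56, -0.41, -0.78 and -1.20 in the same order of classes, at adjusted p values of 0.18 or more by edgeR.

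Among the other receptors, Cnr2, which encodes the CB2 receptor of immune cells, was at 3.64 to 14.5 CPM in microglia and at most at 0.0703 CPM in LS neurons. Gpr18 was called higher in LS neurons than in astrocytes (5.60 CPM on average in LS neurons), and Gpr55 was lower in LS than in striatal neurons, where it was at 1.03 to 2.61 CPM. Trpv1, the capsaicin receptor that anandamide also binds, was called lower in LS neurons than in astrocytes, at 0.221 and 0.952 CPM on average. The levels of Cnr2, Gpr55 and Trpv1 rest on few UMIs. In the smallest library of the class, 1 UMI was 2.07 CPM in microglia, 0.804 CPM in striatal neurons and 0.288 CPM in astrocytes. Gpr119 did not exceed 0.558 CPM on average in any class.

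The receptors that couple to Gq differed widely in level. Grm5, a metabotropic glutamate receptor, was at 4852 to 5304 CPM in LS neurons, against 597 to 1659 CPM in astrocytes and 3132 to 3668 CPM in striatal neurons. The muscarinic receptor gene Chrm3 (605 to 647 CPM) was also called higher in LS neurons in both comparisons, by 3.10 on the log2 scale against astrocytes and by 3.50 against striatal neurons, with edgeR's adjusted p at most 4.13e-05. Chrm1 was at 3.97 to 5.95 CPM in LS neurons and was lower there than in striatal neurons (-2.80, SE 0.19, edgeR's adjusted p = 9.39e-10).

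Among the other synthetic enzymes, Pla2g4e, an N-acyltransferase of the anandamide route, and Plcb2 were called higher in LS neurons in both comparisons. Gdpd1 was called higher in LS neurons than in astrocytes, and Gdpd3 and Plcb4 higher than in striatal neurons, with Plcb4 at 293 to 354 CPM against 19.3 to 55.5 CPM. Abhd4 and Plcb3 were lower in LS neurons than in astrocytes. The counts were 3 higher and 2 lower of 10 against astrocytes and 4 higher and 0 lower of 10 against striatal neurons. In OLs against astrocytes, Gde1, Gdpd1 and Gdpd3 were higher and Plcb1, Plcb3 and Plcb4 lower.

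Of the other breakdown enzymes, Abhd6, a serine hydrolase of 2-AG, was called higher in LS neurons than in astrocytes (101, 90.5, 94.6 and 98.3 against 73.2, 77.4, 81.3 and 73.4 CPM) and than in striatal neurons. This direction was opposite to that of Mgll in both comparisons. Before edgeR's TMM scaling, the CPM difference of Abhd6 from astrocytes lay under the fold limit in each library. Naaa, an acid amidase of N-acylethanolamines, was lower in LS neurons and in OLs than in astrocytes. Ptgs2, the inducible cyclooxygenase that oxidises endocannabinoids, was called lower in LS than in striatal neurons although it did not exceed 2.61 CPM in either and was listed with 0 UMIs in striatal neurons of nude. Abhd12, which was highest in microglia at 327 to 548 CPM, was called in no comparison.

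The intracellular carriers Fabp5 and Fabp7, which can bind anandamide, were lower in LS neurons than in astrocytes (log2 fold changes -2.01 and -1.93, edgeR's adjusted p = 4.53e-06 and 2.21e-05). The CB1 partners went the other way, with Cnrip1 called higher in LS neurons in both comparisons and Sgip1, which limits internalisation of CB1, at 701 to 738 CPM in LS neurons against 490 to 536 CPM in astrocytes. Fabp5 was also lower in LS than in striatal neurons (-0.98, SE 0.12, edgeR's adjusted p = 3.47e-06). In OLs against astrocytes Gpr18 was higher (log2 fold change 0.93), and Abhd6 (-0.73) and Sgip1 (-0.70) were lower. Over all 28 genes, 10 were called higher and 6 lower of 24 tested against astrocytes, 9 higher and 4 lower of 25 against striatal neurons, and 4 higher and 6 lower of 21 in OLs against astrocytes. Over all genes tested the shares called higher and lower were 27.1% and 26.7%, 14.8% and 10.7%, and 15.3% and 21.2% in the same order. The medians of the list in these comparisons were 0.10, 0.18 and -0.04, beside 0.03 over all genes tested in each.

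For each member the genes with the most similar profile, at most 3, over the 11 class means were taken from 13409 genes by the Pearson correlation of log2(CPM + 1), as a description with no test. Cnr1 was most like Sirt6 (r = 0.97), Tacr3 (0.96) and Tacr1 (0.96). For Dagla these were Decr2 and Pfkl (0.93 each) and Ssbp4 (0.92), and for Daglb Gm46367 and Cdh23 (0.97 each). Mgll resembled Zfp277 (0.89), Gemin8 (0.87) and Ccdc62 (0.85) and thus had no neighbour as close as that of Cnr1 or Daglb. Faah was most like Asxl3 (0.93), Gm11659 (0.89) and Mfsd6 (0.87), and Napepld most like Pwwp3a (0.89), Klhl12 and Rxylt1 (0.87 each).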

How the data were processed

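The deposited values are raw UMI counts for each gene in each barcode, which the authors made with Cell Ranger 7.0.1 against mm10 (per the submitters' processing notes) and did not normalize. Whether introns or strand were used in counting is not given in the sources used here. Nuclei were kept at the limits of the study (200 to 6000 genes, 300 to 50000 UMIs, mitochondrial share under 2%), and doublets were predicted from simulated doublets and removed at 0.8% per 1000 nuclei. The 4 libraries were clustered together (Leiden, resolution 1, 40 components of 3000 variable genes, 6 neighbours from every library), without the 6 members, 28 pathway genes and 151 genes that differed between strains by more than 1 on the log2 scale. Mixed neuronal clusters were subdivided. Clusters were named by marker levels relative to the highest cluster. The members, gene lists and classes were chosen with earlier results of these data known, and the naming limits were settled after clusters and member levels had been seen. Counts were summed per library and class and tested with edgeR 4.0.16 (filterByExpr, TMM, quasi-likelihood F test, Benjamini-Hochberg adjustment over all genes tested) in R 4.3.3, in place of the study's Wilcoxon test over nuclei, and with DESeq2 1.42.0 as an alternative. The other alternatives were RLE factors, no filter, each library left out, doublets kept, stricter limits of 500 genes and 1000 UMIs per nucleus, Leiden resolution 2, clustering on all variable genes, nuclei thinned to 1000 UMIs and means over nuclei. The tests were checked on simulated counts with the same spread for every gene, a check that does not cover how these libraries vary. Named were the members, every pathway gene called, the 3 most similar genes per member (at least 10 CPM in a class) and genes overlapping a member or next to it within 10 kb on the same strand. The levels of Cnr2, Gpr119 and Abhd12 were added after their values had been seen. Positions are those of GENCODE vM21, and upstream windows are from RefSeq (GRCm38.p6). Overlapping genes other than those named were not analysed here. A cluster of LS neurons and a few genes that these rules name are not reported here.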

Additional observations from a re-analysis of the deposited data

Results flagged for a closer look

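Within the 6 classes that were tested, for 4 members both libraries of BALB/c background lay on one side of both C57J libraries in some classes and on the other side in another class. These differences between classes were not tested, and none of the members was called in the classes concerned. The share of all genes that do so was not computed, so the count is not read as a result about these members. The values are edgeR's log2 fold changes of nude and BALB/c against C57J. Dagla was higher in LS neurons (0.15) and microglia (0.88) and lower in astrocytes (-0.17). Daglb was higher in LS neurons (0.20) and microglia (0.58) and lower in OPCs (-0.14). Mgll was higher in OPCs (0.34) and lower in OLs (-0.56) and microglia (-0.49). Napepld was higher in LS neurons (0.39) and lower in striatal projection neurons (-0.32). With the classes outside these 6 included, Cnr1 and Faah did so too: Cnr1 was lower in LS neurons and microglia and higher in cholinergic neurons, and Faah was lower in LS neurons, astrocytes and newly forming OLs and higher in glutamatergic neurons.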

How the results depend on the processing

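No paired analysis was possible because nude and BALB/c have 1 library each and share no set of replicate numbers with C57J. Levels moved by less than 1 SD in 251 of 258 cases with classes rebuilt, 54 of 66 with thinned nuclei and 64 of 66 as means over nuclei (leaving out a library cannot move a mean by that much). The level of Daglb in microglia was 89.6 CPM with doublets kept. Of 276 fold changes, 262 kept their direction and side of the limits, 10 lost the call, 3 gained it, and the log2 fold change of Cnr1 in OLs against astrocytes ranged from -0.34 (without nude) to 0.023 (without BALB/c). Members called were 3 in LS against striatal neurons with thinned nuclei (5 in the reported test) and 3 to 5 in LS neurons against astrocytes with a library left out. Between backgrounds in OLs and in microglia, Cnr1 passed the limits only without nude, where BALB/c was a lone library and many more genes were called. The number of all genes called between backgrounds depended on the settings. In LS neurons (412) it was 651 with DESeq2, 1084 with no filter, 230 with thinned nuclei and 121 to 1324 with a library left out. In striatal neurons (86) it was 322 with no filter, 17 thinned and 135 to 322 with a library left out. In astrocytes (8) it was 92 with DESeq2, 410 with no filter, 0 thinned and 0 to 1392 with a library left out. In OLs (9) it was 80 with DESeq2, 1 with RLE factors, 237 with no filter, 1 thinned and 9 to 764 with a library left out. In OPCs (23) it was 183 with no filter, 61 with doublets kept and 80 to 510 with a library left out. In microglia (0) it was 17 with DESeq2, 85 with no filter, 56 with doublets kept and 0 to 862 with a library left out. LS against striatal neurons gave 2623 genes with thinned nuclei (4588 in the reported test). The highest counts in astrocytes, OLs, OPCs and microglia came without nude, and the highest in LS neurons without C57J 2. The causes were not tested. Few nuclei limit the cholinergic neurons, newly forming OLs and the vascular cluster, and low counts limit Napepld.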
